A study of Arabidopsis thaliana with 18 samples.

Results

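The salicylic acid response has a set of transcripts that are read as its output, and 10 of them were followed across 6 Arabidopsis genotypes. They were chosen by name and locus identifier, with earlier results of these data known, and were 10 of the 33602 gene models in the count tables, of which 20619 were abundant enough to test. The set holds the coactivator NPR1 (AT1G64280), the regulators WRKY70 (AT3G56400), WRKY54 (AT2G40750), WRKY38 (AT5G22570) and NIMIN1 (AT1G02450), the pathogenesis-related genes PR1 (AT2G14610), PR2 (AT3G57260) and PR5 (AT1G75040), and the induced genes LURP1 (AT2G14560) and PCC1 (AT3G22231).

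Salicylic acid is the plant hormone of defence against pathogens that feed on living tissue, and it is also high in many autoimmune mutants. It acts through NPR1, a coactivator that is regulated largely at the protein level and that binds TGA transcription factors at promoters such as that of PR1. WRKY factors are induced downstream and act both as activators and as repressors, and NIMIN1 binds NPR1 and restrains PR1 induction. TOR is a growth-promoting kinase whose complex contains the LST8 protein, and YAK1 is a kinase that acts in opposition to TOR in plants.

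The study sequenced polyA RNA of untreated whole plants grown in vitro on 0.3% sucrose at 20 °C in long days of 16 h, at Boyes stage 1.02, a young seedling stage. The 6 genotypes in the Col0 background were labelled yak1lst8-1 (a yak1 lst8 mutant), yak1, lst8-1, maktor1g1maktor5g, maktor1g1 (both labelled maktor mutant) and wild-type Col0, with 3 numbered libraries each. The nature of each allele, whether a line is 1 clone, and how many plants made a library are not given in the sources used here. The design text counts 2 biological replicates while the titles number 3 libraries, so p-values measure the spread between these libraries, part of which may be technical.

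The libraries held 10801464 to 17548790 counted reads, so 3 counts, the limit that a count of 0 allows, corresponded to 0.171 to 0.278 CPM (counts scaled to a common library size), for counting error only. Levels below are CPM scaled by the trimmed mean of M-values, and a gene is called changed when its adjusted p from edgeR's quasi-likelihood test over all 18 libraries is below 0.05. Differences are log2 fold changes ± their standard error. LST8-1 transcripts averaged 1.53 ± 0.554 CPM in yak1lst8-1 and 2.31 ± 0.159 CPM in lst8-1 libraries, against 50.7 ± 3.55 CPM in Col0 (SD, n = 3 each). YAK1 transcripts went against a loss of the transcript: they averaged 337 ± 71.9 CPM in libraries labelled yak1lst8-1 and 321 ± 75.5 CPM in libraries labelled yak1, against 122 ± 20.3 CPM in Col0. These counts do not show whether an intact YAK1 transcript is made, so both genotypes are named here as their libraries are labelled. In whole plants, fewer cells of a type and less RNA per cell cannot be told apart. Markers of green shoot tissue were present in all groups, with none of 6 at 0, and summed to 33148 to 39108 CPM in yak1lst8-1, 30431 to 43441 CPM in yak1, 26247 to 30762 CPM in lst8-1 and 29538 to 31530 CPM in Col0 libraries. The 10 root markers, none at 0, summed to 2734 to 3070 CPM in yak1lst8-1, 2535 to 2871 CPM in yak1, 3037 to 4380 CPM in lst8-1 and 3274 to 3458 CPM in Col0. Of 4 leaf senescence markers, SAG12 had 1 count over all libraries, and the 4 summed to 39.0 to 52.0 CPM in yak1lst8-1, 53.4 to 61.4 CPM in yak1, 26.5 to 35.2 CPM in lst8-1 and 26.5 to 77.8 CPM in Col0. Of the 3 tested, SAG13 was called higher against Col0 in yak1 (2.78 ± 0.83, adjusted p = 0.0448) and yak1lst8-1 (2.75 ± 0.84, adjusted p = 0.0340). NAP was called lower in lst8-1 against Col0 (-1.61 ± 0.56, adjusted p = 0.0411). In yak1lst8-1 against lst8-1, SAG13 (3.41 ± 0.89, adjusted p = 0.00990) and NAP (2.66 ± 0.53, adjusted p = 0.00125) were called higher. The shares called over all genes are given below. The part of these tissues in the results below was not tested.

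Promoter sequences are shown for genes that behaved differently from one another: WRKY70 and PCC1, which were high in yak1-labelled libraries, and PR5, which was not. Each is the 250 bases before the annotated start in RefSeq's TAIR10.1 assembly, written 5′ to 3′ on the gene's strand. Capitals mark TTGAC, the core of the W-box that WRKY factors bind, or TGACG, the core of the site that TGA factors bind, on either strand (GTCAA or CGTCA when read on the other strand).
WRKY70, chr3:20910624-20910873, minus strand: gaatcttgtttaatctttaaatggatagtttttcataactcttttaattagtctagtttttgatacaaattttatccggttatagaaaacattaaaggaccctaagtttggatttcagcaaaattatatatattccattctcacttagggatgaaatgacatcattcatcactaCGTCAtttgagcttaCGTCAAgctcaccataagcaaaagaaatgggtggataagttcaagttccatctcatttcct
PCC1, chr3:7846834-7847083, minus strand: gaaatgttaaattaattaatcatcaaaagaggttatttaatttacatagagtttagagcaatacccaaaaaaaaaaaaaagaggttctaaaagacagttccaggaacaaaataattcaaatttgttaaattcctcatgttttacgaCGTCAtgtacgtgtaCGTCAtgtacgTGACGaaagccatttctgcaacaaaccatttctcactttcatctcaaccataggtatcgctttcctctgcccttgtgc
PR5, chr1:28177420-28177669, plus strand: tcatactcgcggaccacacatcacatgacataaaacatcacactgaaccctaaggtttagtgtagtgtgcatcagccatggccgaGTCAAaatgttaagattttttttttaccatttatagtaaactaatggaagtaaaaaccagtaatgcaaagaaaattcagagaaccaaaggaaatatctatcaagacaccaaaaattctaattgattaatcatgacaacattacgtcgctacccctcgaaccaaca
WRKY70 had 2 TGACG cores, 76 to 72 and 61 to 57 bases before the start, and 1 TTGAC core at 60 to 56 that overlaps the second. PCC1 had 3 TGACG cores, at 104 to 100, 89 to 85 and 78 to 74 bases before its start. PR5 had 1 TTGAC core, at 165 to 161 bases before its start. Of all 27443 protein-coding promoters of this length, 44.93% held TTGAC and 18.58% TGACG, with 2 or more TGACG in 3.21% and 3 or more in 0.58%. Among the promoters of the 9 genes searched, 3 held TTGAC (PR5, WRKY70 and WRKY38) and 2 held TGACG (WRKY70 and PCC1). WRKY54, WRKY38, NIMIN1 and LURP1, which were also highest in libraries labelled yak1, held no TGACG. A match is a run of letters and does not show binding.

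Across the genotypes these genes separated into 3 patterns. NPR1 mRNA was nearly level. WRKY70, WRKY54, WRKY38, NIMIN1, LURP1, PCC1 and PR1 had their highest mean in libraries labelled yak1, followed by yak1lst8-1. PR2 and PR5 had their lowest mean in lst8-1 and the next lowest in yak1lst8-1, below Col0. WRKY70, WRKY54, NIMIN1, LURP1 and PCC1 were also lowest in lst8-1. PR2 had its highest mean in yak1 (8.94 CPM), where libraries overlapped with maktor1g1maktor5g, and PR5 was highest in the maktor genotypes and Col0. Compared with Col0, libraries labelled yak1 had 7 of the 10 genes called higher and 0 lower, where 5.75% of all genes tested were called higher and 6.11% lower (11.9% in all; 1186 higher and 1260 lower, or 905 and 1541 when libraries were scaled by their totals). PR1, WRKY38 and NIMIN1 passed the filter on low counts only through libraries labelled yak1 or yak1lst8-1. Of the 7 genes above that filter in all Col0 libraries, 4 were called higher. In lst8-1 against Col0, 3 of the 10 (PR2, PR5 and WRKY54) were called lower and 0 higher, where 13.4% of all genes were called lower, 14.1% higher and 27.5% in either direction.

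**Figure D1:**
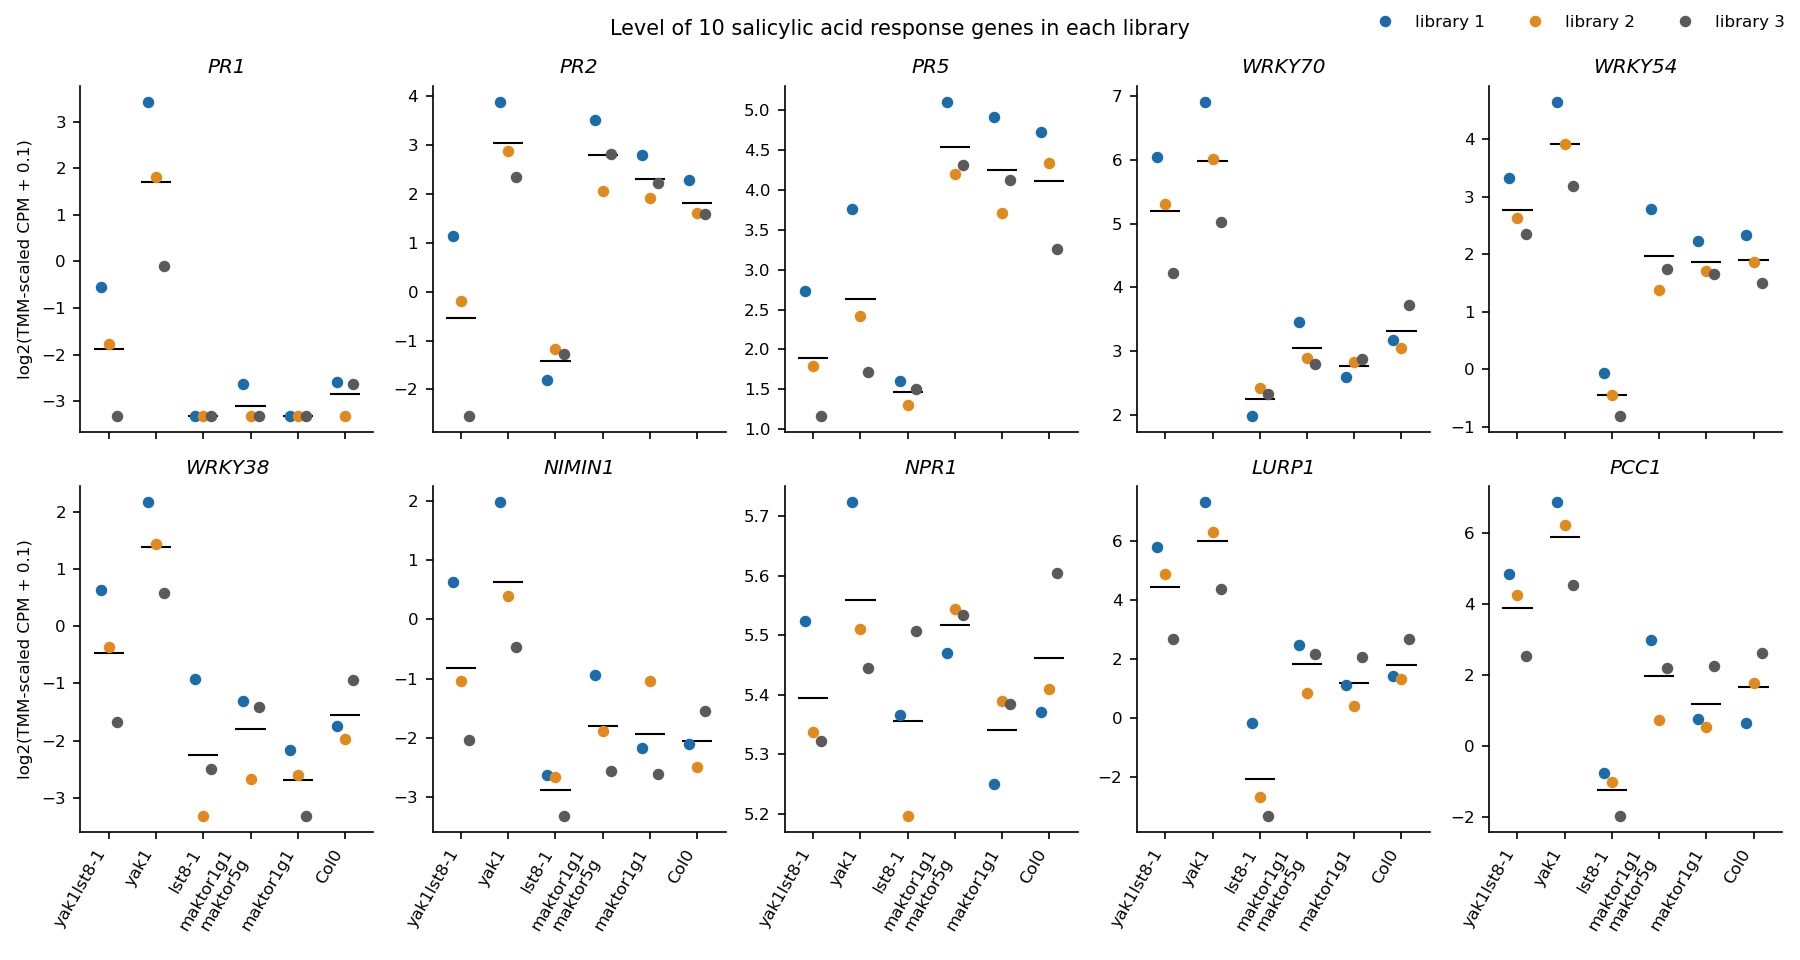
Level of each of the 10 genes in every library, as log2 of the scaled CPM plus 0.1, by genotype. Points are the 3 libraries, coloured by the number in their title, and bars are the mean. PR1, WRKY70, WRKY54, WRKY38, NIMIN1, LURP1 and PCC1 peak in libraries labelled yak1, PR5 in the maktor genotypes and Col0, and the NPR1 axis spans a narrow range.

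NPR1, the coactivator through which the response is switched on, had 45.9, 40.3 and 39.9 CPM in yak1lst8-1, 52.8, 45.5 and 43.4 CPM in yak1 and 41.1, 36.5 and 45.4 CPM in lst8-1 libraries. It had 44.2, 46.5 and 46.2 CPM in maktor1g1maktor5g and 37.9, 41.8 and 41.6 CPM in maktor1g1, against 41.3, 42.4 and 48.6 CPM in Col0. All neighbours in the order of group means, which ran from 40.5 CPM in maktor1g1 to 47.2 CPM in yak1, overlapped. Further apart in that order, every maktor1g1 library lay below every maktor1g1maktor5g and every yak1 library. Between the maktor genotypes the NPR1 difference of 0.17 ± 0.09 was not called. The log2 fold change was 0.10 ± 0.09 (adjusted p = 0.548) in yak1 and -0.11 ± 0.09 (adjusted p = 0.423) in lst8-1, each against Col0. Between yak1lst8-1 and lst8-1 it was 0.04 ± 0.09 (adjusted p = 0.774), with a sign that turned without library 2 of lst8-1, without library 1 of yak1lst8-1, and when libraries were scaled by their totals. AT1G08667 and AT1G64270 overlap NPR1 on the other strand in TAIR10.1 (NPR1 at chr1:23852748-23855658). The kit keeps strand, but whether counting used it is not given in the sources used here.

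WRKY70, an activator of salicylic acid genes that also represses jasmonate genes, had 65.8, 39.3 and 18.7 CPM in yak1lst8-1, 120.1, 64.1 and 32.4 CPM in yak1 and 3.86, 5.29 and 4.91 CPM in lst8-1 libraries. Levels were 10.9, 7.37 and 6.89 CPM in maktor1g1maktor5g and 5.93, 7.06 and 7.29 CPM in maktor1g1, against 8.94, 8.15 and 13.1 CPM in Col0. Every library labelled yak1 or yak1lst8-1 lay above every library of the other 4 genotypes, while every lst8-1 library lay below every library of the other genotypes. WRKY70 rose by 2.83 ± 0.48 (adjusted p = 0.00227) on the log2 scale in yak1 against Col0, by 2.03 ± 0.48 (adjusted p = 0.0101) in yak1lst8-1 against Col0, and by 3.15 ± 0.53 (adjusted p = 0.000601) in yak1lst8-1 against lst8-1. Without yak1 library 1 the first was 2.24 (adjusted p = 0.00710), and without yak1lst8-1 library 1 the second was 1.5 (adjusted p = 0.0521), which ended that call. In lst8-1 against Col0 the difference of -1.11 ± 0.57 (adjusted p = 0.166) was not called, although the libraries did not overlap.

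WRKY54, the closest relative of WRKY70 and partly redundant with it, was also highest in yak1 and lowest in lst8-1. It had 9.90, 6.06 and 4.99 CPM in yak1lst8-1, 25.0, 14.9 and 9.02 CPM in yak1 and 0.858, 0.633 and 0.468 CPM in lst8-1, with 6.77, 2.49 and 3.24 CPM in maktor1g1maktor5g, 4.57, 3.14 and 3.04 CPM in maktor1g1 and 4.94, 3.54 and 2.72 CPM in Col0. The lst8-1 libraries all lay below 1 CPM and below every other genotype. WRKY54 rose in yak1 against Col0 by 2.13 ± 0.40 (adjusted p = 0.00305), fell in lst8-1 against Col0 with a log2 fold change of -2.47 ± 0.58 (adjusted p = 0.00518), and rose in yak1lst8-1 against lst8-1 by 3.40 ± 0.54 (adjusted p = 0.000252). These 3 calls held when any 1 library of the groups compared was left out. WRKY54 in yak1lst8-1 against Col0 gave 0.93 ± 0.42 (adjusted p = 0.138), which was not called.

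WRKY38, which together with WRKY62 represses basal defence, was scarce: 1.46, 0.673 and 0.214 CPM in yak1lst8-1, 4.41, 2.59 and 1.39 CPM in yak1, 0.429, 0 and 0.0779 CPM in lst8-1 and 0.200, 0.154 and 0.424 CPM in Col0. The maktor genotypes had between 0 and 0.302 CPM. WRKY38 rose by 3.35 ± 0.68 (adjusted p = 0.00392) in yak1 against Col0, and the value in yak1lst8-1 against lst8-1 was 2.20 ± 0.87 (adjusted p = 0.0603), called without yak1lst8-1 library 3 (2.65, adjusted p = 0.0258). Without yak1lst8-1 library 1 the WRKY38 value was 1.23 (adjusted p = 0.396), and without lst8-1 library 2 it was 1.57 (adjusted p = 0.197), neither called. It was called without lst8-1 library 1, which held 7 of the 8 WRKY38 counts of that genotype (adjusted p = 0.0194). Without that library the summed counts were 35 in yak1lst8-1 and 1 in lst8-1, a ratio of 24.8 with a 95% counting interval of 4.17 to 1008. Counting intervals here and below pool the reads of a group and leave out the spread between libraries. NIMIN1, which encodes the NPR1-binding protein, had 1.46, 0.385 and 0.143 CPM in yak1lst8-1, 3.86, 1.22 and 0.625 CPM in yak1, 0.0613, 0.0575 and 0 CPM in lst8-1 and 0.133, 0.0769 and 0.242 CPM in Col0. Over the 3 libraries NIMIN1 had 80 counts in yak1 and 7 in Col0, a ratio of 11.9 (95% counting interval 5.54 to 30.7), and it was called higher (adjusted p = 0.0126). Without yak1 library 1 that call was lost at 2.47 (adjusted p = 0.0738). In yak1lst8-1 against lst8-1 the 31 and 2 counts of NIMIN1 gave a ratio of 16.6 (95% counting interval 4.24 to 144; adjusted p = 0.0276). That call was lost without any 1 of lst8-1 libraries 1, 2 and 3 (adjusted p = 0.0682, 0.0724 and 0.0692) or without yak1lst8-1 library 1 (2.32, adjusted p = 0.273).

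The pathogenesis-related genes differed from one another. PR1, the common reporter of the response, encodes a secreted protein of the apoplast. It had 0.583, 0.192 and 0 CPM in yak1lst8-1 and 10.7, 3.40 and 0.833 CPM in yak1 libraries, with 0, 0 and 0 CPM in lst8-1, 0 to 0.0604 CPM in the maktor genotypes and 0.0667, 0 and 0.0605 CPM in Col0. Of the 18 libraries, PR1 was above the 3-count floor in all 3 labelled yak1, in 1 labelled yak1lst8-1 and in none of the others. Counts over the group were 209 in yak1 and 2 in Col0, a ratio of 109 (95% counting interval 29.9 to 908), and PR1 was called higher (adjusted p = 0.00769), also without yak1 library 1, which held 155 of the 209 counts (adjusted p = 0.00691). Without that library the counts were 54 in yak1 and 2 in Col0, a ratio of 42.5 (95% counting interval 11.2 to 359.6). Between yak1lst8-1 and lst8-1 PR1 had 12 and 0 counts and was not called (adjusted p = 0.215). Scaled for depth, the 12 counts were 4.30 times a floor of 3 counts over the group. That value takes the 12 counts as exact, and 10 of them were in yak1lst8-1 library 1 and 0 in library 3.

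PR2 encodes a beta-1,3-glucanase. It had 2.1, 0.770 and 0.0714 CPM in yak1lst8-1, 14.6, 7.22 and 5.0 CPM in yak1, 0.184, 0.345 and 0.312 CPM in lst8-1, 11.3, 4.08 and 6.96 CPM in maktor1g1maktor5g, 6.86, 3.66 and 4.56 CPM in maktor1g1 and 4.74, 2.92 and 2.91 CPM in Col0. The lst8-1 libraries were all below the Col0 libraries, and so were those of yak1lst8-1. PR2 fell in lst8-1 against Col0 with a log2 fold change of -3.62 ± 0.84 (adjusted p = 0.00500). In yak1 against Col0 it was 1.35 ± 0.51 (adjusted p = 0.105), not called although the libraries did not overlap. In yak1lst8-1 against Col0 it was -1.73 ± 0.67 (adjusted p = 0.0841), and of the fits that leave out 1 library it was called in the one without yak1lst8-1 library 1, at -3.21 (adjusted p = 0.0212).

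PR5 encodes a thaumatin-like protein and did not follow PR1. It had 6.53, 3.37 and 2.14 CPM in yak1lst8-1, 13.5, 5.27 and 3.19 CPM in yak1 and 2.94, 2.36 and 2.73 CPM in lst8-1, with 34.4, 18.3 and 19.9 CPM in maktor1g1maktor5g and 30.2, 13.0 and 17.4 CPM in maktor1g1, against 26.5, 20.1 and 9.45 CPM in Col0. Every lst8-1 and yak1lst8-1 library was below every Col0 library, and yak1 library 1 overlapped Col0. PR5 fell in lst8-1 with a log2 fold change of -2.80 ± 0.60 (adjusted p = 0.00367) and in yak1lst8-1 with -2.16 ± 0.57 (adjusted p = 0.0175), each against Col0. In yak1 against Col0 it was -1.33 ± 0.53 (adjusted p = 0.124). Leaving out 1 library at a time gave -2.15 to -0.96 there, with adjusted p from 0.0349 to 0.339. Of these fits, only that without yak1 library 1 called PR5 lower, at -2.15 (adjusted p = 0.0349). Without yak1lst8-1 library 1 the yak1lst8-1 value was -2.79 (adjusted p = 0.0195). The yak1lst8-1 call was lost without Col0 library 1 (-1.82, adjusted p = 0.0654), yak1lst8-1 library 2 (-2.07, adjusted p = 0.0587) or yak1lst8-1 library 3 (-1.85, adjusted p = 0.0753).

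PR1 and PR2 were the only ones of the 10 called in yak1lst8-1 against yak1, where 2.99% of all genes were called (1.88% higher and 1.11% lower) and both fell, PR1 with a log2 fold change of -4.10 ± 0.97 (adjusted p = 0.0474) and PR2 with -3.08 ± 0.62 (adjusted p = 0.0126). Without yak1 library 1 they were PR1 -2.83 (adjusted p = 0.0934) and PR2 -2.52 (adjusted p = 0.0547). The PR1 call was also lost without yak1 library 2 or any 1 yak1lst8-1 library (adjusted p = 0.0807, 0.0787, 0.172 and 0.141). It was lost as well with DESeq2 (adjusted p = 0.190), with library totals (adjusted p = 0.0512) and with no filter (adjusted p = 0.0898). The PR2 call was lost without yak1lst8-1 library 2 (-2.95, adjusted p = 0.0643). Without yak1lst8-1 library 1 the PR1 value was -5.78 and the PR2 value -4.56 (adjusted p = 0.00843). In the fit of these 2 groups alone neither was called (adjusted p = 0.231 for PR1 and 0.147 for PR2).

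LURP1, which is induced during basal resistance to an oomycete, and PCC1, a small membrane-associated protein gene known from defence and the circadian clock, ranged widely. LURP1 had 55.1, 29.2 and 6.35 CPM in yak1lst8-1, 159.8, 78.1 and 20.4 CPM in yak1, 0.797, 0.0575 and 0 CPM in lst8-1 and 2.60, 2.38 and 6.24 CPM in Col0. PCC1 had 28.5, 19.0 and 5.78 CPM in yak1lst8-1, 118, 75.6 and 23.3 CPM in yak1, 0.490, 0.403 and 0.156 CPM in lst8-1 and 1.47, 3.31 and 6.05 CPM in Col0. Both were above every Col0 library in every library labelled yak1, and below every Col0 library in every lst8-1 library. For yak1lst8-1 against Col0, LURP1 was above in all libraries, with its lowest library at 6.35 CPM close to the highest Col0 library at 6.24 CPM, and PCC1 overlapped.

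In yak1 against Col0, LURP1 rose by 4.49 ± 0.88 (adjusted p = 0.00535) and PCC1 by 4.29 ± 0.76 (adjusted p = 0.00289). In yak1lst8-1 against lst8-1, LURP1 rose by 6.63 ± 1.32 (adjusted p = 0.00198) and PCC1 by 5.59 ± 1.14 (adjusted p = 0.00229). Without yak1lst8-1 library 1 the LURP1 value was 5.81 (adjusted p = 0.00784). LURP1 was also called without lst8-1 library 1, which held 13 of the 14 LURP1 counts of that genotype (adjusted p = 0.00872), and 1 count was then left in lst8-1, for a ratio of 949 with a 95% counting interval of 170.1 to 37516. Without Col0 library 3 the yak1 values were 5.11 (adjusted p = 0.0168) for LURP1 and 4.95 (adjusted p = 0.00918) for PCC1. Without yak1 library 1 the LURP1 value was 3.68 (adjusted p = 0.0199). In lst8-1 against Col0 the differences of -3.64 ± 1.72 (adjusted p = 0.136) for LURP1 and -3.30 ± 1.40 (adjusted p = 0.0980) for PCC1 were not called. DESeq2 called both lower there (adjusted p = 0.00374 and 0.000980), and so did the fit of these 2 groups alone (adjusted p = 0.0169 and 0.00554), which also called WRKY70 lower (adjusted p = 0.00410). Neither was called without Col0 library 3, at -3.03 (adjusted p = 0.336) for LURP1 and -2.66 (adjusted p = 0.292) for PCC1, and LURP1 was not called without lst8-1 library 1 (adjusted p = 0.165).

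In yak1lst8-1 against Col0, where 18.9% of all genes were called (10.3% higher and 8.65% lower) and 3 of the 10 were (WRKY70 and LURP1 higher, PR5 lower), LURP1 rose by 2.99 ± 0.88 (adjusted p = 0.0307). That call was lost without Col0 library 1 (2.77, adjusted p = 0.101), Col0 library 2 (2.77, adjusted p = 0.0902), Col0 library 3 (3.61, adjusted p = 0.0516), yak1lst8-1 library 1 (2.17, adjusted p = 0.139) or yak1lst8-1 library 2 (3.02, adjusted p = 0.0567). PCC1 gave 2.29 ± 0.78 (adjusted p = 0.0569), called without yak1lst8-1 library 3 (2.70, adjusted p = 0.0274). PCC1 counts carry a further limit: 30.8% of the 50-base words of its gene model (223 of 724) also occur in AT3G22235, which lies 7585 bases away on the same strand, and removal of multi-hit reads lowers the counts of both. AT3G22235 itself averaged 54.0 ± 38.0 CPM in yak1, against 3.39 ± 0.681 CPM in Col0, and was called higher (3.98 ± 0.76, adjusted p = 0.00479). The other 9 genes shared no such word with another gene. Per kilobase, PCC1 was the most abundant of the 10 in yak1 libraries at 132 ± 86.6 RPKM, followed by WRKY70 at 65 ± 39.9 RPKM and LURP1 at 56.2 ± 45.7 RPKM, and these 3 overlapped.

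**Figure D2:**
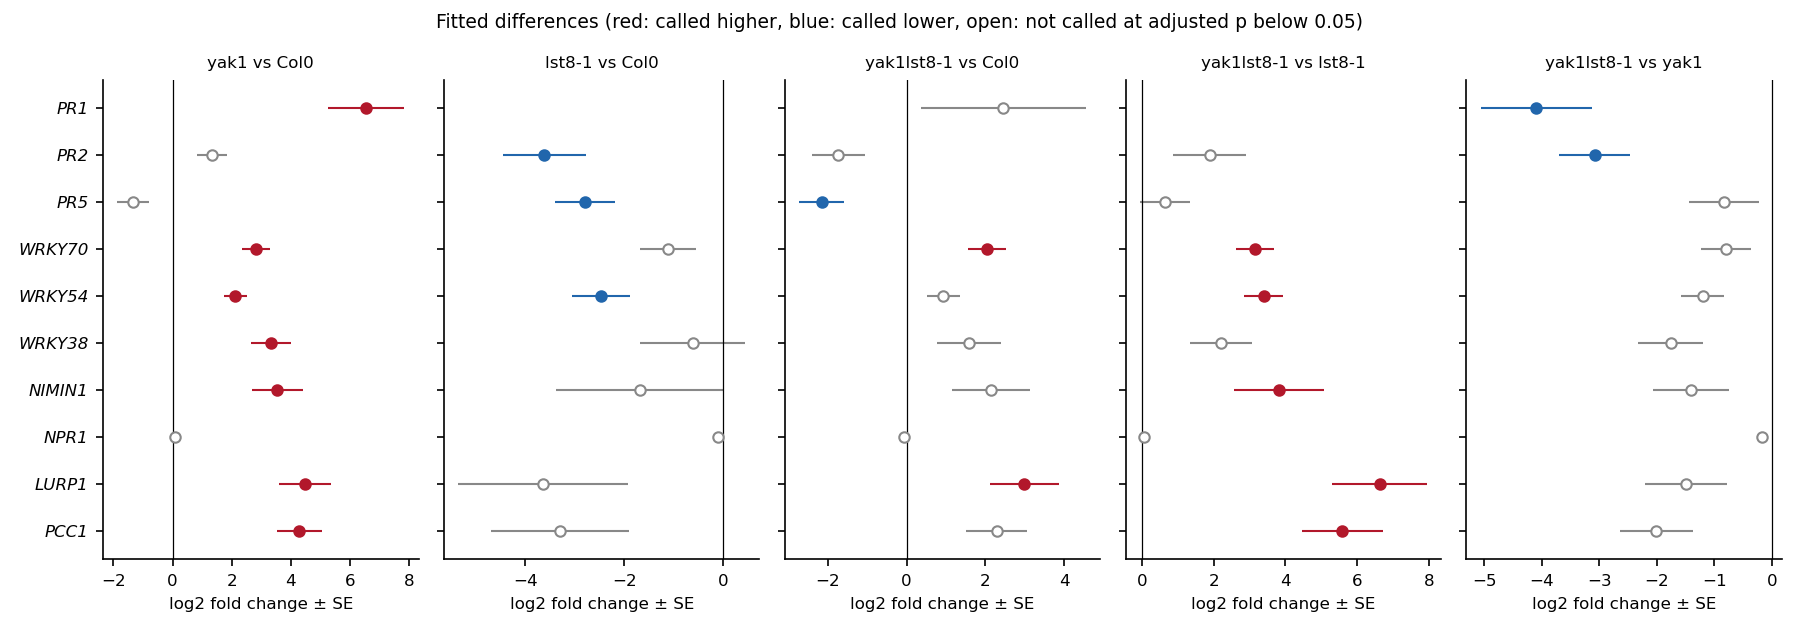
Fitted log2 fold changes with standard errors of the 10 genes in 5 comparisons, each with its first-named genotype over the second; axis ranges differ between panels. Filled points are called and open points are not. PR1 is left out of the lst8-1 panels, since all 3 lst8-1 libraries were at 0 counts.

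The calls in yak1 against Col0 depended on which libraries set the spread. With all 18 libraries in 1 fit, 7 genes were called. With only the 6 yak1 and Col0 libraries in the fit, 2 were (WRKY54, adjusted p = 0.0453, and WRKY38, adjusted p = 0.00936), and the other 5 were not: NIMIN1 (adjusted p = 0.0584), PCC1 (4.30, adjusted p = 0.0705), WRKY70 (2.84, adjusted p = 0.0737), LURP1 (4.5, adjusted p = 0.0870) and PR1 (adjusted p = 0.0904). The fold changes printed here were close to those of the fit of all libraries. In yak1lst8-1 against Col0 the 3 calls (WRKY70 and LURP1 higher, PR5 lower) became 0 in the fit of those groups alone. In yak1lst8-1 against lst8-1, 5 genes (WRKY70, WRKY54, NIMIN1, LURP1 and PCC1) were called higher and 0 lower, where 33% of all genes were called, 16.4% higher and 16.6% lower, and 5 were called in the fit of those groups alone.

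In 2 of the 6 genotypes the libraries stood in the same order for all 10 genes. In libraries labelled yak1 all 10 genes, NPR1 included, were highest in library 1 and lowest in library 3, and the same held for all 10 in yak1lst8-1. In Col0, 4 of the 10 were highest in library 1 and 6 in library 3, and in maktor1g1maktor5g 9 were highest in library 1. Leaving aside PR1, which was at 0 in both, 6 of 9 genes in lst8-1 and 4 of 9 in maktor1g1 were highest in library 1. The highest over the lowest library was 8.68 for LURP1, 4.93 for PCC1, 3.52 for WRKY70 and 1.15 for NPR1 in yak1lst8-1, and 7.83, 5.04, 3.70 and 1.21 for the same genes in yak1. Summed green shoot markers were lowest in library 1 and highest in library 3 of both genotypes. The same held in lst8-1 (26247, 29771 and 30762 CPM) and maktor1g1 (25053, 27009 and 28547 CPM). In maktor1g1maktor5g library 1 was also lowest (23244.7, 28521.5 and 26952.3 CPM in libraries 1, 2 and 3). In Col0 library 1 was highest (31530, 29898 and 29538 CPM). The sums were 33148, 36328 and 39108 CPM in yak1lst8-1 libraries 1, 2 and 3 and 30431, 32985 and 43441 CPM in yak1 libraries 1, 2 and 3, and their part in the spread was not tested.

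**Figure D3:**
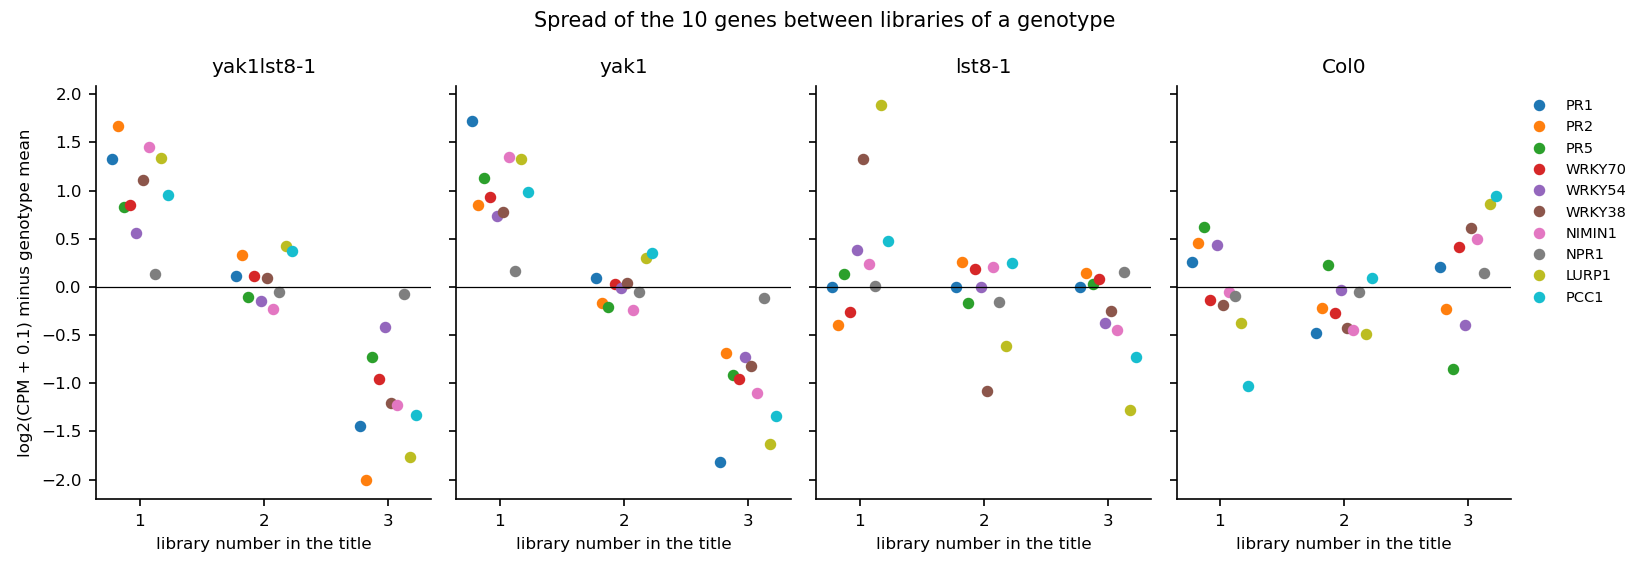
Deviation of each gene in each library from the mean of its genotype, on the log2 scale of CPM plus 0.1, for 4 genotypes. In yak1lst8-1 and yak1 all 10 genes are above their mean in library 1 and below it in library 3, whereas the Col0 points are mixed.

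Leaving out the 6 libraries numbered 1, an alternative chosen after seeing the data, kept 4 genes called higher in yak1 against Col0. These were WRKY70 at 2.15 (adjusted p = 0.0320), WRKY54 at 1.93 (adjusted p = 0.000219), WRKY38 at 2.66 (adjusted p = 0.0122) and PR1 (adjusted p = 0.0262). PR5 was then called lower at -1.80 (adjusted p = 0.0193), while NIMIN1 (2.36, adjusted p = 0.0574), LURP1 (3.45, adjusted p = 0.0946) and PCC1 (3.36, adjusted p = 0.0675) were not called. In yak1lst8-1 against Col0, neither WRKY70 (1.40, adjusted p = 0.101) nor LURP1 (1.94, adjusted p = 0.313) remained called, and PR5 and PR2 were called lower.

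Whether the yak1 genotype had the same effect in both backgrounds was tested by an interaction, the difference of yak1lst8-1 from lst8-1 minus that of yak1 from Col0. It called 0 of the 10 genes, where 3.46% of all genes were called. PR5 alone had an unadjusted p below 0.05, and DESeq2 called 0. The largest values above 0 were 2.14 ± 2.03 (adjusted p = 0.651) for LURP1, 1.97 ± 0.87 (adjusted p = 0.264) for PR5, 1.29 ± 1.69 (adjusted p = 0.755) for PCC1 and 1.27 ± 0.71 (adjusted p = 0.382) for WRKY54. Below 0, WRKY38 had -1.14 ± 1.29 (adjusted p = 0.707), and PR1 is left out since lst8-1 was at 0 counts. WRKY70 had 0.32 ± 0.72 (adjusted p = 0.870) and NPR1 -0.06 ± 0.13 (adjusted p = 0.869). In yak1lst8-1 against yak1, the fold changes of WRKY70 (-0.80 ± 0.43, adjusted p = 0.418), WRKY54 (-1.20 ± 0.38, adjusted p = 0.110), LURP1 (-1.5 ± 0.71, adjusted p = 0.343) and PCC1 (-2.01 ± 0.64, adjusted p = 0.128) were below 0 and not called. Without yak1 library 3, WRKY54 (-1.5, adjusted p = 0.0265), WRKY38 (-2.1, adjusted p = 0.0432) and PCC1 (-2.44, adjusted p = 0.0362) were called lower there. Without yak1 library 1 the values of WRKY70 (-0.21, adjusted p = 0.895), LURP1 (-0.68, adjusted p = 0.778), NIMIN1 (-0.32, adjusted p = 0.901) and PR5 (-0.011, adjusted p = 0.998) were nearer 0. Without yak1lst8-1 library 1 LURP1 was at -2.32 (adjusted p = 0.196). These comparisons share libraries with the ones above and are not separate evidence.

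**Figure D4:**
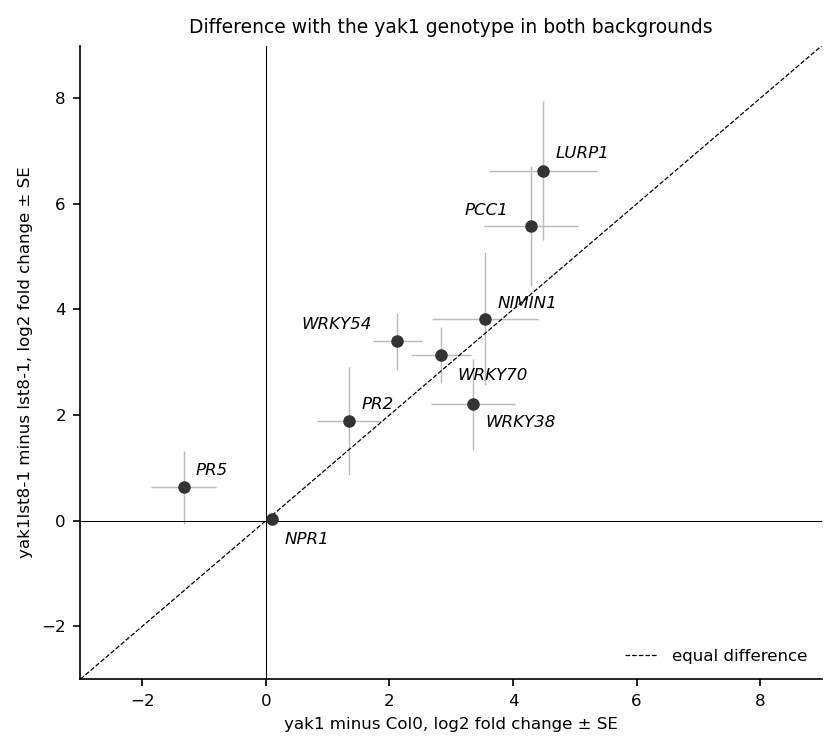
Log2 fold change of yak1lst8-1 over lst8-1 (vertical) against that of yak1 over Col0 (horizontal) for 9 of the 10 genes, with standard errors; the dashed line marks equal values. PR1 is left out because all lst8-1 libraries were at 0. LURP1, PCC1, WRKY54, WRKY70, NIMIN1, WRKY38 and PR2 are above 0 on both axes, and PR5 is below 0 only on the horizontal one.

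Neither maktor genotype had a call among the 10 genes. Compared with Col0, 0 of the 10 were called in maktor1g1 and 0 in maktor1g1maktor5g, where 0.0679% of all genes were called in each, and 0 were called between the 2 maktor genotypes, where 0.0097% were. At an unadjusted p below 0.05 there were also 0 in each of the 3 comparisons, and DESeq2 called 0 in each, although it gave PR1, WRKY38 and NIMIN1 no adjusted p in maktor1g1maktor5g against Col0. Mean PR5 was 24.2 ± 8.87 CPM in maktor1g1maktor5g and 20.2 ± 8.94 CPM in maktor1g1, against 18.7 ± 8.61 CPM in Col0 (SD, n = 3 each). PR2 averaged 7.45 ± 3.63 CPM in maktor1g1maktor5g and 5.03 ± 1.65 CPM in maktor1g1, against 3.52 ± 1.05 CPM in Col0. LURP1 and PCC1 overlapped with Col0 in both genotypes, with LURP1 at 5.44, 1.70 and 4.41 CPM in maktor1g1maktor5g and 2.1, 1.22 and 4.06 CPM in maktor1g1. PCC1 had 7.80, 1.59 and 4.55 CPM in maktor1g1maktor5g and 1.61, 1.35 and 4.69 CPM in maktor1g1. Missing the threshold does not show that these groups are alike.

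Over the 18 libraries, which share genotypes and scaling, the 10 genes moved together unequally, as a description on log2 CPM. LURP1 and PCC1 had a correlation of 0.98, WRKY54 and LURP1 of 0.94, WRKY70 and PCC1 of 0.93, and PR1 and WRKY38 of 0.91. PR5 followed PR2 (0.79) and had values near 0 with WRKY70 (-0.17), PR1 (-0.10) and PCC1 (0.05). NPR1 ranged from 0.21 with PR5 to 0.57 with WRKY38. By the same measure over all genes tested, the genes most like the mean standardised level of the 9 genes other than NPR1 were AT3G60420 (0.965), AT5G52810 (0.961), PCR1 (0.958), WAK1 (0.956) and ACD6 (0.956). Those most like NPR1 were PLDGAMMA1 (0.854), ADR1-L1 (0.847), GSTF2 (0.837), FUT4 (0.807) and ZAR1 (0.778).

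Related genes were read from lists chosen by function, and the few called members of a list are named after their values were seen. Over all genes tested, 5.75% rose and 6.11% fell in yak1 against Col0. In yak1lst8-1 against lst8-1, 16.4% rose and 16.6% fell. Among relatives of NPR1 (5 tested), 1 rose and 0 fell in yak1 against Col0, namely NPR4, a salicylic acid receptor that acts as a corepressor (0.45 ± 0.11, adjusted p = 0.0117), while NPR3 gave 0.54 ± 0.18 (adjusted p = 0.0607). In yak1lst8-1 against lst8-1, NPR3 (0.74 ± 0.18, adjusted p = 0.00577) and NPR4 (0.46 ± 0.11, adjusted p = 0.00483) rose, and 1 of the 5, the leaf patterning gene BOP2, fell (-0.25 ± 0.09, adjusted p = 0.0376). NIMIN2, a relative of NIMIN1, rose in yak1 (1.87 ± 0.37, adjusted p = 0.00342) as 1 of 3 relatives, and the others, NIMIN3 (0.22 ± 0.16) and NIMIN1b (-0.13 ± 0.46), were not called. Of 7 TGA factors, 0 rose and 2 fell in yak1 against Col0, with TGA3 at -0.37 ± 0.07 (adjusted p = 0.00289) and TGA4 at -0.44 ± 0.11 (adjusted p = 0.0141), and 0 rose and 4 fell in yak1lst8-1 against lst8-1 (TGA2, TGA3, TGA4 and TGA7), where 16.6% of all genes fell. Of 13 further group III and IIa WRKY factors 7 were abundant enough to test, of which 0 changed in yak1 against Col0, and in yak1lst8-1 against lst8-1 only WRKY46 rose (2.24 ± 0.57, adjusted p = 0.00755).

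Upstream, 11 of 14 genes of salicylic acid signalling and turnover rose and 0 fell in yak1 against Col0. Over all genes tested, 5.75% rose and 6.11% fell in that comparison. The median log2 fold change of the 14 was 0.99, against -0.01 over all genes tested. The same count, 11 and 0 of 14, was called in yak1lst8-1 against lst8-1, where 16.4% of all genes rose. In lst8-1 against Col0, where 14.1% of all genes rose and 13.4% fell, 2 of the 14 rose (EDS5 and DLO1) and 4 fell (CBP60G, ALD1, FMO1 and UGT74F2), with UGT74F2, a salicylic acid glucosyltransferase gene, at -1.17 ± 0.11 (adjusted p = 4.40e-07). DLO1, which hydroxylates and so removes salicylic acid, rose in yak1 (2.83 ± 0.28, adjusted p = 6.21e-06). Of 9 other salicylic acid-induced genes, 5 rose (ANK, WAK1, ACD6, NUDT6 and GRXS13) and 0 fell in yak1 against Col0, with the ankyrin protein gene ANK at 4.83 ± 0.82 (adjusted p = 0.00162), with a list median of 1.34. In yak1lst8-1 against lst8-1, 3 of the 9 rose (ANK, WAK1 and ACD6). Genes of the secretory pathway that NPR1 is known to induce had 1 of 6 higher in yak1, BIP3, at 2.28 ± 0.53 (adjusted p = 0.00897), and 0 of 6 higher and 3 lower in lst8-1 (BIP2, CNX1 and PDIL1-1), each against Col0. The remaining gene of that list, TBF1, was listed at 0 in all libraries.

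Of 10 listed jasmonate and ethylene outputs, often opposed to salicylic acid, 6 were abundant enough to test. PDF1.2a, PDF1.2b, THI2.1 and ERF1 were not, with 13, 12, 5 and 55 counts over all 18 libraries. Of the 6 tested, 1 was higher and 0 lower in yak1 against Col0. It was the chitinase gene PR3 (1.02 ± 0.16, adjusted p = 0.000622). Over all genes tested, 5.75% were higher and 6.11% lower in yak1 against Col0. In lst8-1 against Col0, where 14.1% of all genes were higher and 13.4% lower, 2 of the 6 were higher (VSP1 and VSP2) and 3 lower (PR3, PR4 and LOX2), with VSP2 at 2.80 ± 0.38 (adjusted p = 4.02e-05). Of 7 listed relatives of PR1, PR2, PR5 and PCC1, 4 were abundant enough to test, and 2 of these (AT3G22235, above, and BG3) rose in yak1 against Col0 while 0 fell. BG3, 5252 bases from PR2, rose in yak1 against Col0 (2.64 ± 0.70, adjusted p = 0.0223). TLP-3, 2213 bases from PR5, averaged 4.22 ± 1.09 CPM in yak1 and 1.64 ± 0.534 CPM in lst8-1, against 3.50 ± 0.879 CPM in Col0, and fell in lst8-1 (-1.11 ± 0.27, adjusted p = 0.00445). PRB1, 15412 bases from PR1, had 103 counts over all 18 libraries and was not tested.

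**Figure D5:**
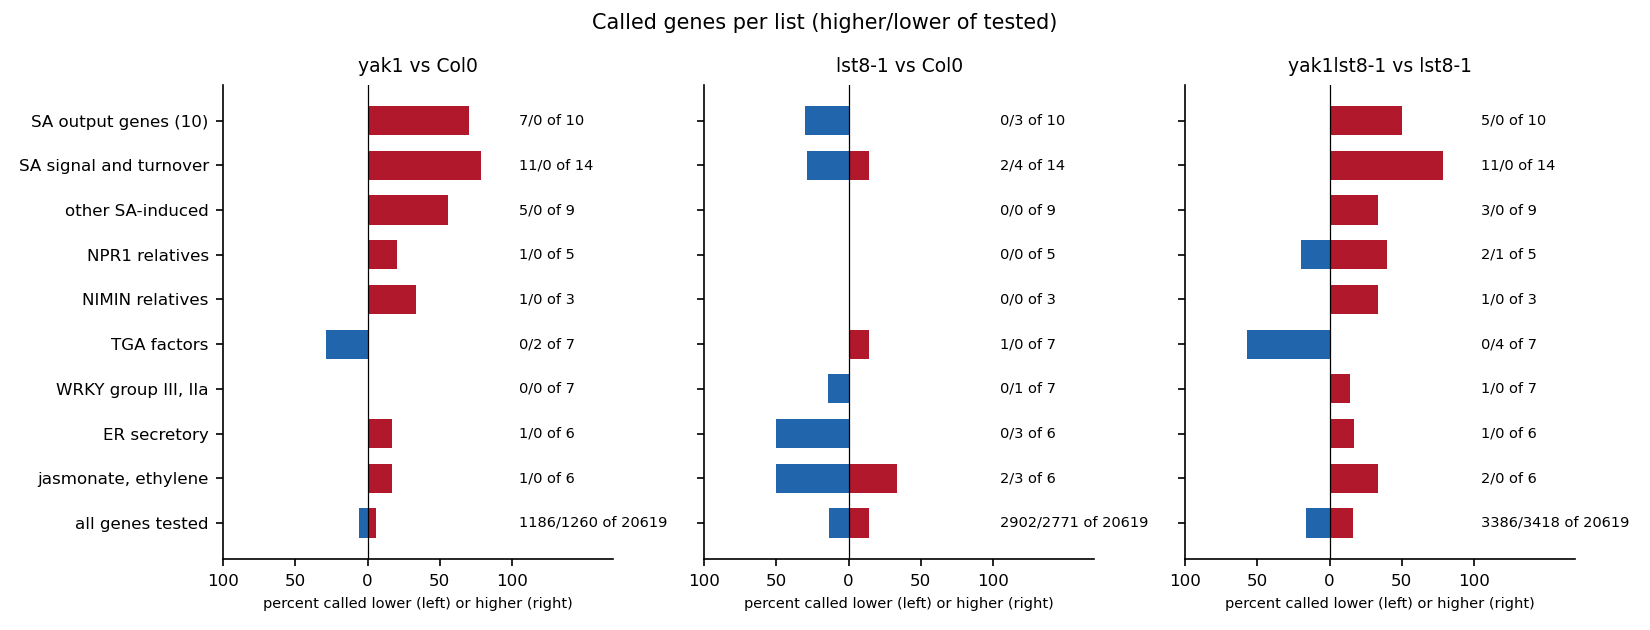
Percent of the tested genes of each list called lower (left of 0) or higher (right of 0) in 3 comparisons, with the counts printed as higher/lower of tested. In yak1 against Col0 the lists of salicylic acid output, signal and other induced genes reach 7 of 10, 11 of 14 and 5 of 9 higher, beside 1186 of 20619 over all genes.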

How the data were processed

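Stranded polyA RNA-seq of whole plants was counted per gene model, and the deposited files hold raw read counts. Per the submitters' processing notes, reads were mapped with TopHat2 and Bowtie2 to TAIR10, and per the file headers multi-hit reads, 1.85% to 2.22% of mapped reads, were removed, which lowers genes with near-identical copies. The 18 libraries fell into 6 genotypes by their titles. Counts were tested with edgeR 4.0.16 in R 4.3.3 (quasi-likelihood test, two-sided, limma 3.58.1) on 20619 genes with at least 10 counts (0.648 CPM at this depth) in 3 libraries, with TMM scaling, 12 residual degrees of freedom, a common biological coefficient of variation of 10.8% and Benjamini-Hochberg adjustment over all genes tested. Standard errors are the log2 fold change over the square root of F. RPKM used the model lengths in the files. The steps were tested on simulated data. Libraries of a genotype differed beyond sampling noise (chi-square per degree of freedom 2.91 to 21.9 over genes).

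Alternatives were other scaling, no filter, DESeq2 1.42.0, a fit of only the groups compared, the library number as a block, each library left out, and the 6 libraries numbered 1 left out, the last chosen after seeing the data. Deviations of same-numbered libraries from their group means correlated above 0.1 in 16 of 24 pairs of libraries. All 3 pairs of a comparison passed 0.1 only between the maktor genotypes (correlations 0.43, 0.21 and 0.16 over genes). Between yak1lst8-1 and yak1, libraries 1 and 3 had higher values (0.55 and 0.49) and library 2 a lower one (0.07). By this rule the numbers were read as pairs between the maktor genotypes only, and that fit called the same number of genes, 2, with 0 members. The members and lists were chosen with earlier results of these data known. The text names all 10 members, by rule up to 2 called genes with the smallest adjusted p per other list and comparison, further genes where a list had few calls (chosen after their values were seen), close relatives of members, and the 5 genes most like them. Positions and promoters come from RefSeq's TAIR10.1, since the count files give no coordinates. The promoter of 1 of the 10 genes is not reported here.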

Additional observations from a re-analysis of the deposited data

Results flagged for a closer look

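The interaction called 714 of all genes tested, 435 above 0 and 279 below, and 3 of them were in the lists of related and marker genes used here (edgeR, Benjamini-Hochberg over all genes; yak1lst8-1 minus lst8-1, minus yak1 minus Col0). DLO1, a salicylic acid hydroxylase gene, had a log2 difference of -2.07 ± 0.37 (adjusted p = 0.00476). UGT74F2, a salicylic acid glucosyltransferase gene, had 0.80 ± 0.15 (adjusted p = 0.00600). RSL4, a root hair regulator gene used as a root marker, had -1.29 ± 0.27 (adjusted p = 0.0147).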

How the results depend on the processing

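Of the 10 genes, the numbers called were 3 in lst8-1 against Col0, 7 in yak1 against Col0, 3 in yak1lst8-1 against Col0, 5 in yak1lst8-1 against lst8-1, 2 in yak1lst8-1 against yak1 and 0 in the interaction. With only the groups compared these became 6, 2, 0, 5, 0 and 0. With DESeq2 they were 5, 7, 4, 6, 2 and 0. Scaling by library totals, or no filter, left 1 in yak1lst8-1 against yak1. Without the 6 libraries numbered 1 they were 3, 5, 2, 3, 2 and 0. The cause was not tested. Leaving out 1 library gave 1 to 3 in yak1lst8-1 against Col0 and 0 to 5 in yak1lst8-1 against yak1.

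With the replicate block they were 3, 9, 6, 8, 5 and 2. The labels give same-numbered libraries nothing in common but the number in these comparisons. Of 18 libraries, 14 correlated best with libraries of their own number, which is a hint from the data and not the design. The block called PR5 (1.96, adjusted p = 0.0339) and WRKY54 (1.31, adjusted p = 0.0134) in the interaction, and PR2 higher and PR5 lower in yak1 against Col0 (adjusted p = 0.00696 and 0.00582).

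Signs of uncalled values turned. Without the libraries numbered 1, NPR1 was -0.041 in yak1 against Col0, -0.020 in yak1lst8-1 against lst8-1 and 0.021 in the interaction, where PR2 was -0.88 and WRKY38 0.68. With library totals NPR1 was -0.017 in yak1lst8-1 against lst8-1. Leaving out 1 library gave -2.74 to 0.017 for WRKY38 in lst8-1 against Col0, and for NPR1 -0.14 to 0.0092 in yak1lst8-1 against Col0 and -0.037 to 0.12 in yak1lst8-1 against lst8-1. In the interaction it gave -0.94 to 1.1 for PR2, -0.22 to 0.90 for WRKY70, -2.11 to 0.97 for WRKY38, -1.23 to 1.36 for NIMIN1 and -0.14 to 0.030 for NPR1. In the maktor comparisons 33 of 390 member values changed sign, with 0 called.

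Over all genes, calls in yak1 against Col0 were 2446, against 898 with only the groups compared and 4111 with the block. The same 3 counts were 616, 331 and 1601 in yak1lst8-1 against yak1 and 714, 344 and 1889 in the interaction, where leaving out 1 library gave 299 to 773 and 347 to 850. For maktor1g1 against Col0 they were 14, against 101 with DESeq2, 238 with the block and 6 to 17 with 1 library left out. For maktor1g1maktor5g against Col0 they were 14, against 157, 653 and 8 to 26 in the same order, 32 with library totals or without the libraries numbered 1, 23 with no filter and 5 with only the groups compared. Between the maktor genotypes 2 became 1 with library totals, with only the groups compared or without the libraries numbered 1, and 0 to 1 with 1 library left out.

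Depth limits PR1, WRKY38 and NIMIN1, which lay near the 3-count floor in most libraries not labelled yak1, those of yak1lst8-1 included. It also limits LURP1, PCC1 and PR2 in lst8-1, and PR2 in yak1lst8-1 library 3, which had 1 count.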
